A study of Mus musculus with 6 samples.

Results

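Neutrophil granule protein genes were examined in 6 megakaryocyte samples: Mpo, Elane, Prtn3 and Ctsg of the azurophil granules, Ltf, Camp, Ngp and Mmp8 of the specific granules, and S100a8 and S100a9 of the neutrophil cytosol. These 10 genes were chosen by name, and every non-control probe whose accession mapped to one of them was used, 11 probes among 41174. All 10 genes were well above background on all 6 arrays and were tested with 18206 genes in all. Megakaryocytes, the platelet-forming cells, were grown from fetal livers of C57BL/6 mice at E13.5. Of the samples, 3 were labelled p45-/- and 3 were WT, p45 being the larger protein of the NF-E2 heterodimer, a transcription factor of megakaryocytes (gene Nfe2). The labels name no agent, sort or purity for the cultures, and for the RNA source they name whole embryos in one place and cultured cells in another, which is not resolved here.

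Neutrophils store their weapons in granules that form in a fixed order while the cell matures in the marrow or fetal liver. Azurophil granules form first, in promyelocytes, and carry myeloperoxidase and the serine proteases neutrophil elastase, proteinase 3 and cathepsin G. Their transcripts are also abundant in granulocyte-monocyte progenitors. Specific granules form later, in myelocytes, and carry lactoferrin and antimicrobial peptides, while S100A8 and S100A9 together make calprotectin, a calcium- and zinc-binding protein that fills the neutrophil cytosol. The azurophil and specific granule proteins are not counted among the classical products of megakaryocytes.

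A level here is log2 of the processed array signal minus the 75th percentile of the same array, so a level of 0 is that percentile. Unscaled, the percentile was 135, 407 and 589 signal units for p45-/- 1 to 3, against 339, 583 and 575 for WT 1 to 3. Array 1 of p45-/- stood apart, with correlations across genes of 0.782 to 0.884 to the other arrays. The extraction quality result was ExtractionEvaluate for WT array 2 and ExtractionInRange for the others. The median of the spike-in control probes was 9181 on p45-/- array 2, against 3074 to 4503 on the others. Slide 1 carried the arrays numbered 3, and slide 2 those numbered 1 and 2. Without p45-/- array 1 the median difference of the 10 genes described below was -1.01 and the all-gene median 0.069. Without WT array 2 these medians were -0.65 and -0.032. All 12 megakaryocyte markers were well above background on all 6 arrays. Nfe2 itself had levels of 4.87, 6.43 and 6.34 in p45-/- and 5.24, 6.57 and 6.33 in WT, and the position of its probe relative to the deletion is not known here, so it does not check the genotype labels.

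All 10 group means were lower in the arrays labelled p45-/-, the smallest difference being -0.0032 for S100a9, and 53.6% of all genes tested were lower in group mean. The median difference of the 10 genes, p45-/- minus WT, was -0.84, beside -0.048 over all genes tested. No member passed limma's test, with adjusted p between 0.494 and 0.998, and 0 of the 18206 genes passed (0% in either direction, smallest adjusted p = 0.0876). At an unadjusted p under 0.05 limma gave 5 members, all lower, and 606 lower and 478 higher genes in all (3.33% and 2.63%). For the same 5 members, Mpo, Elane, Prtn3, Ctsg and Mmp8, every p45-/- array lay below every WT array, which held for 8.43% of all genes tested. The opposite order held for 0 members and for 4.77% of all genes. With the replicate number as a block in limma, 0 members and 0.0275% of all genes passed, all of these lower. With 3 arrays against 3 the exact permutation test gives p = 0.1 for such a gene, the smallest it can give. The labels do not say whether the samples of a group came from separate embryos or cultures, so these p-values measure only the spread between these samples, which may be technical. In these bulk cultures fewer cells of a type and less RNA per cell cannot be told apart.

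**Figure D1:**
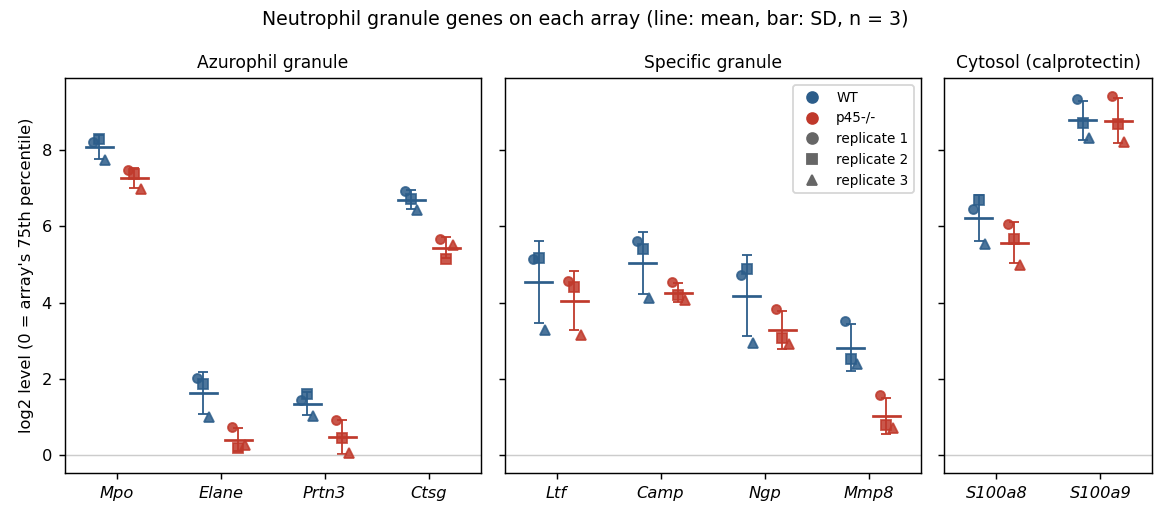
Log2 level of each neutrophil granule gene on each array, relative to the array's 75th percentile (0 on the vertical axis), with WT in blue and p45-/- in red, the replicate numbers as symbols, the mean as a line and the SD as a bar (n = 3). The groups do not overlap for the 4 azurophil genes and Mmp8, while for Ltf, Camp and Ngp WT replicate 3 lies among the p45-/- arrays.

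The azurophil genes showed the same order of groups in each of the 4 cases. Mpo encodes myeloperoxidase, the haem enzyme that makes hypochlorous acid from hydrogen peroxide. Its levels were 7.47, 7.39 and 6.98 in p45-/- (arrays 1, 2, 3 throughout), and 8.22, 8.31 and 7.73 in WT. The highest p45-/- array therefore lay below the lowest WT array by a margin smaller than the range within either group. The p45-/- mean was 7.28 ± 0.26 and the WT mean 8.09 ± 0.31 (SD, n = 3 each), a difference of -0.81 (SE 0.31, 95% interval -1.55 to -0.060, limma adjusted p = 0.704).

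Elane encodes neutrophil elastase, a serine protease that cuts matrix proteins and bacterial virulence factors. It stood at 0.74, 0.19 and 0.27 in p45-/- and at 2.02, 1.87 and 0.99 in WT. WT array 3 was the lowest of its group, and still above all 3 p45-/- arrays. The mean level in WT was 2.34-fold that in p45-/- (log2 difference -1.23, SE 0.38, limma adjusted p = 0.677).

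Prtn3 encodes proteinase 3, a close relative of elastase. Its levels of 0.93, 0.44 and 0.050 in p45-/- and 1.44, 1.59 and 1.01 in WT came nearest to overlapping, since p45-/- array 1 lay just below WT array 3. The difference was -0.87 (SE 0.35, limma adjusted p = 0.704). Ctsg encodes cathepsin G, a serine protease of mixed specificity. Its groups were the best separated of the 4, with 5.68, 5.14 and 5.51 in p45-/- and 6.94, 6.72 and 6.44 in WT, and SDs of 0.27 and 0.25. They differed 2.39-fold, or by -1.26 (95% interval -1.98 to -0.53, SE 0.30, limma adjusted p = 0.494). On the deposited signal scale, before any scaling between arrays, Ctsg read 6920, 14368 and 26760 in p45-/- and 41529, 61351 and 49867 in WT.

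The 4 azurophil genes followed one another over the 6 arrays, with Pearson r between 0.869 (Prtn3 with Ctsg) and 0.971 (Mpo with Prtn3). These are descriptions over 6 points that share their arrays and their scaling. Prtn3 and Elane are next to each other among the tested genes of chromosome 10 in the order of assembly GRCm38.p6.

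Promoters are shown for the members that carry the letters AGGAAGT, the core bound by PU.1 and other ETS factors, because PU.1 is a known activator of granule protease genes. The promoters (250 bases before to 50 after the start, RefSeq, GRCm38.p6) were matched by symbol for all 10 members. On either strand, AGGAAGT occurred in 6 of 10, all 4 azurophil genes, Mmp8 and S100a8, and in 9.35% of 32851 promoters of all genes. The letters were chosen after the promoters had been seen. Each window is 31 bases, 5′ to 3′ on the strand of the gene, with AGGAAGT or its reverse complement in capitals.
Mpo, chr11:87793549-87793579 (+): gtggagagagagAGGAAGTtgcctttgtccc
Elane, chr10:79886216-79886246 (+): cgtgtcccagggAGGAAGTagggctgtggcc
Prtn3, chr10:79879561-79879591 (+): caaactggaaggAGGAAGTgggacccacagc
Ctsg, chr14:56102762-56102792 (-): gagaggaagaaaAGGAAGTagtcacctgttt
Mmp8, chr9:7558196-7558226 (+): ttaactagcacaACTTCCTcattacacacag
S100a8, chr3:90668887-90668917 (+): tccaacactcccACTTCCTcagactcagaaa

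The neighbouring genes Elane and Prtn3 hold the core at a like distance from the start, with its first base at -84 and -94. Both also have TATAA on the strand of the gene, first base at -31 and -32. The 100 bases before each start are printed with AGGAAGT and TATAA in capitals.
Elane, chr10:79886212-79886311 (+): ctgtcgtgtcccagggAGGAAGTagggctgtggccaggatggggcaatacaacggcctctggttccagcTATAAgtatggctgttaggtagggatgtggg
Prtn3, chr10:79879567-79879666 (+): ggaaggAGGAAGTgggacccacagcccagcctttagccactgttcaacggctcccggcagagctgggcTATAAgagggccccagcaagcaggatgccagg

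The other motifs were searched on both strands in the same windows, and these matches describe letters only. The C/EBP letters TTGCNNAA occurred in Ltf, Ngp, Mmp8 and S100a9, and in 10.8% of all promoters. TATAA occurred in 6 of the 10 and in 24.9% of all promoters. The GATA letters AGATAA occurred in Ltf and S100a9, and in 11.2% of all promoters. The NF-E2 letters TGANTCAGC occurred in 0 of the 10 windows and in 1.19% of all promoters, which says only that these letters are not in these windows.

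The specific granule genes were less uniform. Mmp8, neutrophil collagenase, had the largest difference of the 10 genes. It stood at 1.57, 0.79 and 0.71 in p45-/- and at 3.53, 2.52 and 2.40 in WT. The highest p45-/- array lay well below the lowest WT array. The means were 1.02 ± 0.48 and 2.81 ± 0.62 (SD, n = 3 each), a 3.46-fold difference (log2 difference -1.79, SE 0.43, 95% interval -2.83 to -0.75, limma adjusted p = 0.498, and 0.0787 with the replicate number as a block). Mmp8 passed the threshold only with limma's array weights (adjusted p = 0.0107, range over the alternatives 0.0107 to 0.998), as did Ctsg (adjusted p = 0.0205, range 0.0205 to 0.998). That fit called 1171 genes, 2.81% of all genes being called lower, and gave a median of -0.56 for the 10 members, with Camp at -0.20 and Ngp at -0.23. The weight of p45-/- array 1 was 0.0881 and that of WT array 3 was 9.17.

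Ltf, Camp and Ngp shared another pattern, in which replicate 3 differed little between the groups. Ltf encodes lactoferrin, the iron-binding protein of specific granules. Its levels were 4.57, 4.42 and 3.16 in p45-/- and 5.15, 5.17 and 3.29 in WT, so replicate 3 was the lowest array of each group. The difference of -0.49 had an SE of 0.65 (limma adjusted p = 0.803). The second Ltf probe gave 4.26, 3.95 and 2.58 in p45-/- and 4.73, 4.67 and 2.65 in WT, the same order of arrays within p45-/- and a difference of -0.42.

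Camp encodes the precursor of the cathelicidin peptide CRAMP, which permeabilises bacterial membranes. It read 4.55, 4.19 and 4.06 in p45-/- and 5.61, 5.40 and 4.12 in WT. WT array 3 lay within the range of the p45-/- arrays and the other WT arrays above it. The difference was -0.78 (SE 0.46, limma adjusted p = 0.704). Ngp, neutrophilic granule protein, a cathelicidin relative, read 3.84, 3.08 and 2.92 in p45-/- and 4.72, 4.87 and 2.95 in WT, with the same overlap at WT array 3. Its difference was -0.90 (SE 0.59, limma adjusted p = 0.704). Camp and Ngp had the highest correlation of any pair of members, 0.979 over the 6 arrays.

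The pairs of same-numbered arrays show where the members part. In pairs 1, 2 and 3 the median difference of the 4 azurophil genes was -1.01, -1.36 and -0.84. For the specific granule genes it was -0.97, -1.47 and -0.098. In pair 3, on slide 1, Ltf, Camp and Ngp differed by -0.13, -0.064 and -0.035, while Mmp8 differed by -1.68, close to its -1.95 and -1.73 in pairs 1 and 2. Mpo differed by -0.75, -0.92 and -0.75 and Ctsg by -1.26, -1.57 and -0.93. Of the 10 members, 9 were lower in all 3 pairs, all but S100a9, against 23.6% of all genes tested. Pair 3 is 1 array per group, so its differences have no replicate check, and slide, scan and replicate 3 cannot be told apart.

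**Figure D2:**
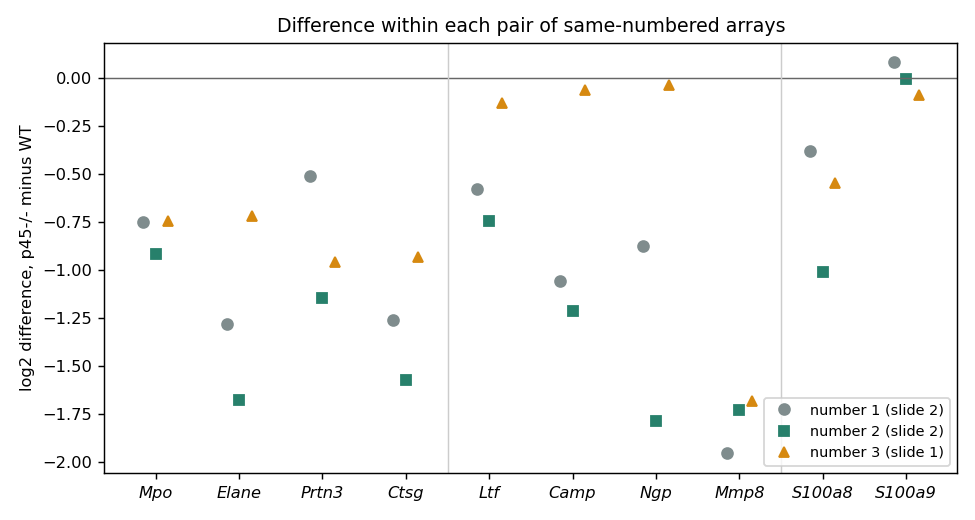
Log2 difference, p45-/- minus WT, for each member within each pair of same-numbered arrays, with pairs 1 and 2 on slide 2 and pair 3 on slide 1. Ltf, Camp and Ngp lie near 0 in pair 3 only (-0.13, -0.064 and -0.035), Mmp8 lies between -1.95 and -1.68 in all 3 pairs and S100a9 near 0 in all 3.

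Leaving out 1 array moved these 3 genes. Without WT array 3, Ltf, Camp and Ngp differed by -1.11, -1.24 and -1.52. The smallest differences were -0.040 for Ltf without p45-/- array 3, -0.50 for Camp without WT array 1 and -0.56 for Ngp without WT array 2.

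The calprotectin genes had unlike differences, though their intervals overlap. S100a8 read 6.07, 5.67 and 4.99 in p45-/- and 6.45, 6.68 and 5.54 in WT, overlapping at p45-/- arrays 1 and 2 and WT array 3. The difference was -0.65 (SE 0.45, limma adjusted p = 0.704), and it was -0.38, -1.01 and -0.55 in pairs 1, 2 and 3. S100a9 read 9.41, 8.70 and 8.22 in p45-/- and 9.33, 8.70 and 8.31 in WT, nearly the same set of values in both groups. They differed by -0.0032 (95% interval -1.05 to 1.04, SE 0.44, limma adjusted p = 0.998), an interval that includes the -0.65 of S100a8. The S100a9 signal reached up to 57.3% of the highest signal of its array, and no spot was saturated on any array. Its correlation with the azurophil genes over the arrays was 0.218 to 0.493, beside 0.662 to 0.917 for S100a8.

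**Figure D3:**
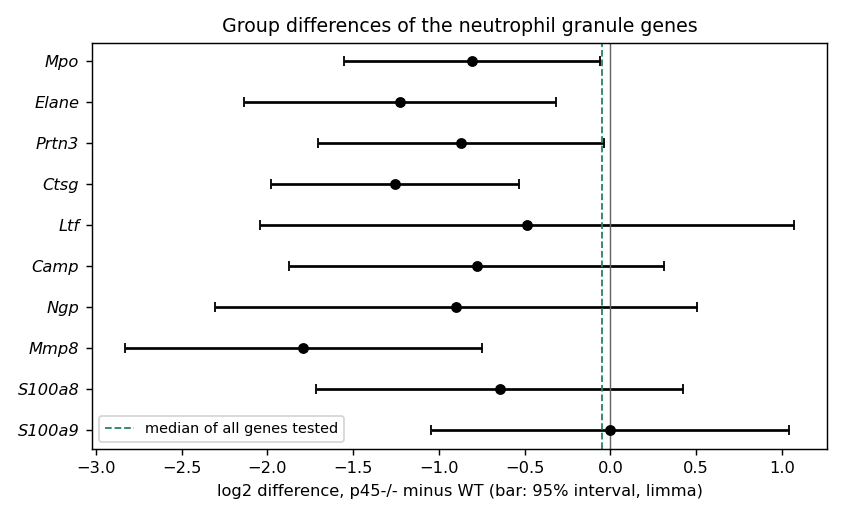
Group difference in log2 level, p45-/- minus WT, for each member with its 95% interval from limma (points and bars) and the median of all genes tested (dashed line, -0.048). The intervals of Mpo, Elane, Prtn3, Ctsg and Mmp8 exclude 0 before adjustment, and no member passes after adjustment over all genes.

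These values depended on the scaling between arrays. With no scaling between arrays 9 members did not overlap, all but Ltf (5.09% of all genes), with Ngp at 4444 signal units on array 3 of both groups, the members' median was -1.44 and that of all genes -0.65. With median scaling 8 did not overlap (11.7% of all genes), and the medians were -1.35 and -0.56. With quantile normalization 2 did not overlap, Ctsg at -0.94 and Mmp8 at -1.55 (8.01% of all genes), and the medians were -0.61 and -0.025. All 10 differences stayed negative under these 3 scalings. Relative to the median of all genes, S100a9 lay slightly above it under 75th percentile and median scaling and with no scaling, and below it after quantile normalization.

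**Figure D4:**
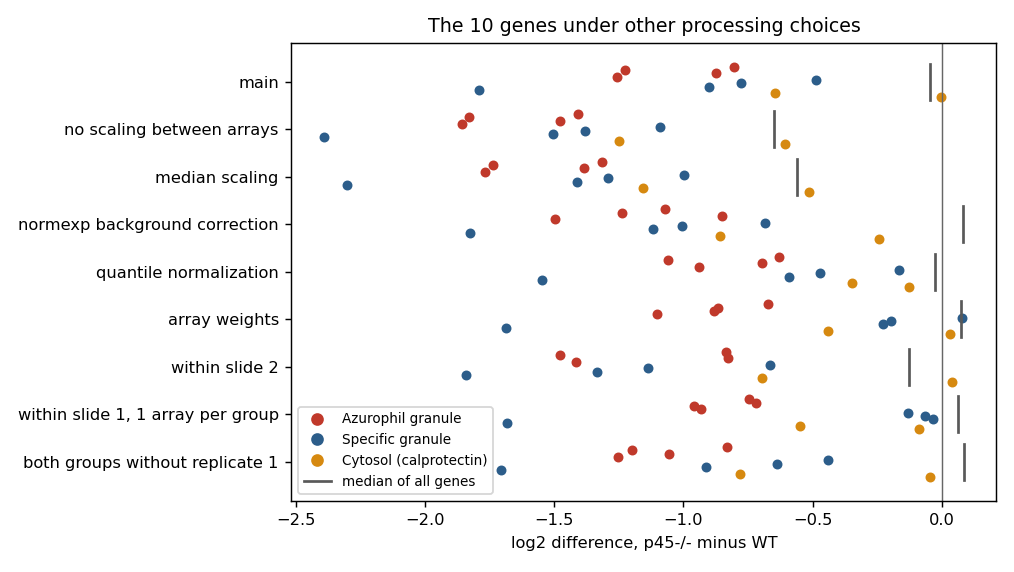
Log2 difference, p45-/- minus WT, of each member (points, coloured by location) under other processing choices, with the median of all genes tested under the same choice (grey line). The azurophil genes and Mmp8 lie below the grey line in every choice drawn.

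Other genes of the neutrophil programme were taken from lists, in which 0 genes passed limma's test over all genes in either direction. For comparison with the counts of these and the marker lists, 53.6% of all genes tested were lower in group mean. Over all genes 8.43% were lower without overlap. Among other specific and gelatinase granule genes 12 of 15 were lower, with a median of -0.77 (-0.33 without WT array 1) and 4 that did not overlap. Hp, haptoglobin, which is also stored in neutrophils, differed by -1.68 (SE 0.38, limma adjusted p = 0.464), with levels of 4.14, 3.11 and 3.97 in p45-/- and 5.71, 5.47 and 5.07 in WT. The 3 genes of this list with a higher mean, named outside the rule, were Slpi at 0.96, Chil3 at 0.38 and Mmp25 at 0.11. Cyba and Cybb, the membrane subunits of the phagocyte NADPH oxidase, differed by -0.97 and -0.71. The list of this oxidase, which makes the hydrogen peroxide that myeloperoxidase uses, had 6 of 6 genes lower, a median of -0.74 and 5 without overlap, among them Rac2, its small GTPase, at -0.84. Cyba and Cybb are counted in both lists.

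Of 13 other azurophil granule genes tested, 8 were lower, with a median of -0.017, near that of all genes, and of 0.21 after quantile normalization or without p45-/- array 1. Cd63, a granule membrane tetraspanin that platelet granules also carry, differed by -0.88, Srgn (serglycin, the granule proteoglycan) by -0.91 and Ctsc, the protease that activates elastase, proteinase 3 and cathepsin G, by -0.87. The lysozyme genes Lyz1 and Lyz2 differed by 0.17 and -0.0013. The other lysosomal enzymes of the list, which most cells express, ranged from -0.44 (Man2b1) to 0.14 (Ctsd), with Gusb at 0.13. These 5 genes are named outside the rule. Among S100 and annexin relatives 8 of 9 were lower with a median of -0.27 (0.030 after quantile normalization, 0.12 leaving out replicate 1 of both groups), S100a10 at -1.25, S100a11 at -0.70 and Anxa1 at -0.80.

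Granulocyte transcription factors were lower in 8 of 8, with a median of -0.66 and 3 without overlap. Myb, a progenitor factor that activates Elane and Mpo, differed by -1.05 (SE 0.32, limma adjusted p = 0.667), Cebpb by -1.48 (SE 0.46) and Gfi1 by -1.07 (SE 0.39). Cebpa, the C/EBP factor of early granulocytes, differed by -0.21 (SE 0.33) and Spi1, which encodes PU.1, by -0.73 (SE 0.51). Both were chosen outside the naming rule, and for both the groups overlapped. In pairs 1, 2 and 3 Spi1 differed by -1.41, -0.61 and -0.16. Among granulocyte receptors 12 of 13 were lower, with a median of -0.84 and 7 without overlap (53.6% and 8.43% of all genes were lower and lower without overlap). Csf2ra differed by -1.08 (SE 0.41) and Cxcr2, a chemokine receptor of mature neutrophils, by -1.63 (SE 0.62). For Cxcr2 the groups overlapped, with p45-/- array 1 at -2.36 and WT array 3 at -2.69. Csf2rb, the 1 gene of the list with a higher mean, differed by 0.48 (SE 0.69), named outside the rule.

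Markers of megakaryocytes and of other cells are given beside these genes. Megakaryocyte markers were lower in 10 of 12, with a median of -0.40 (0.038 without p45-/- array 1, -0.90 without WT array 1, -0.17 without WT array 3) and summed levels of 976 to 2072 in p45-/- and 1202 to 2141 in WT. Gp6, the platelet collagen receptor, differed by -6.09 (SE 0.92, limma adjusted p = 0.287, and 0.0166 with the replicate number as a block). Non-member neutrophil markers, all 8 of which also stand in the lists above, were lower in 7 of 8. Their median was -0.83, -0.40 without WT array 1 and -1.48 without WT array 3, and their summed level was 28.6 to 49.5 in p45-/- and 36.1 to 90.0 in WT. Ly6g and Cebpe were not found on the array by name. Monocyte and macrophage markers were lower in 6 of 11, with a median of -0.072 (0.22 after quantile normalization, 0.37 without WT array 1) and summed levels of 220 to 293 in p45-/- and 173 to 444 in WT. Mast cell and basophil markers were lower in 6 of 9, with a median of -0.94 (-0.36 without p45-/- array 1, -1.47 without WT array 1) and summed levels of 6.44 to 20.6 against 19.1 to 42.8. Of these 9, 7 were well above background on all 6 arrays, with a median of -1.16 for those 7. Ms4a2 was kept through WT and Tpsb2 through p45-/-, each the group where it was higher. Gata2, which megakaryocytes and progenitors also express, is in that list at -1.98, named outside the rule. Eosinophil markers were lower in 6 of 6 with a median of -0.27 (0.013 without p45-/- array 1) and 0.47 in pair 3. Of 10 erythroid markers tested, 7 were well above background on all 6 arrays, with a median of 1.62 for those 7, beside 2.09 for the 10 and 1.24 for the 10 with normexp background correction. Ermap, Epb42 and Rhag were kept through p45-/-, where they were higher. Hepatocyte markers were higher in 8 of 8, with a median of 1.06, of -0.17 in pair 1 and of 0.55 without p45-/- array 3. Of the lymphoid markers 5 were tested, 3 of them well above background on all 6 arrays, and the median of those 3 was 0.0027. The part of these cells in the differences of the granule genes was not tested.

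**Figure D5:**
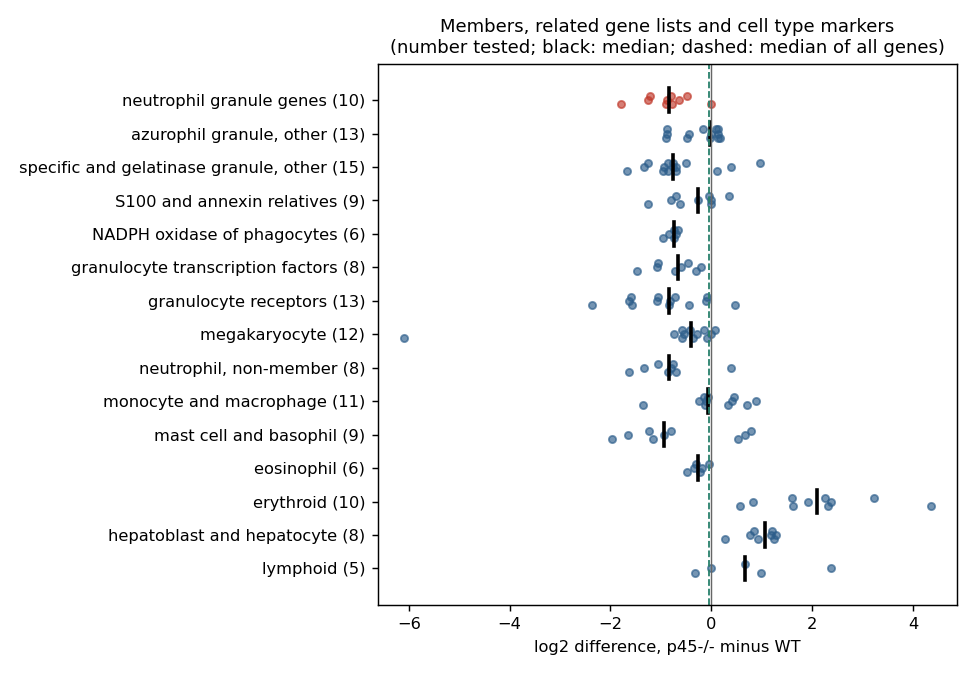
Log2 difference, p45-/- minus WT, of each tested gene (points) in the members, the related gene lists and the cell type marker lists, with the list median in black, the median of all genes as a dashed line and the number tested in brackets. The medians of the specific granule, oxidase, transcription factor, receptor and neutrophil marker lists lie between -0.66 and -0.84, those of the other azurophil genes and the monocyte markers near 0 and that of the erythroid markers at 2.09. The mast cell and basophil median is lower than all of these, at -0.94, and the megakaryocyte median lies at -0.40.

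Genes whose levels over the 6 arrays were most like the mean of each class were named by their Pearson r among 12927 genes with a symbol. For the azurophil genes these included Rnf144a and Padi4, at 0.991 and 0.990, with 114 genes above 0.9. Padi4 encodes a peptidylarginine deiminase that citrullinates histones in neutrophils. The WT mean was 1.28 ± 0.98 and the p45-/- mean -2.33 ± 1.30 (SD, n = 3 each), a difference of -3.61 (SE 0.78, limma adjusted p = 0.422, and 0.0510 with the replicate number as a block). Padi4 was chosen for following the azurophil mean over these same arrays, so a lower p45-/- mean came with the choice. Its difference is therefore no separate result. For the specific granule genes Stfa2, a stefin of a multigene family whose copies may share signal, Pram1, an adaptor of myeloid cells, and Pdcd1lg2 had r of 0.996, 0.992 and 0.986. For S100a8 and S100a9 the nearest were Dnali1, Rgcc and Lcn2, at 0.981, 0.966 and 0.966, and Lcn2, lipocalin 2, is itself a specific granule protein. In p45-/-, Dnali1 and Pdcd1lg2 exceeded background clearly on only 2 arrays.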

How the data were processed

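RNA of 3 p45-/- and 3 WT samples was labelled with Cy3 and hybridised to 6 single-colour Agilent arrays, per the labels' protocols. Processed intensities were extracted with Feature Extraction 10.7.3.1 per the file headers (10.1 per the submitters' processing notes), background-subtracted and detrended within each array, linear, with no scaling across arrays. A value table of the series deposited by the authors held the same intensities, with a largest difference of 0.497% and column medians of 20.9 to 42.0. Being single-channel, it has no direction, and no centring by gene was found.

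Here log2 values were taken, 32 to 80 outlier spots per array dropped, spots averaged per probe and each array's 75th percentile subtracted. Probes well above background on all arrays of 1 group were kept, 23952 of 41174. RefSeq accessions gave names from a table of assembly GRCm38.p6 (the file headers name mm9). Each gene was represented by its brightest probe, giving 18206 genes. Groups were compared with limma 3.58.1 in R 4.3.3 (lmFit and eBayes, two-sided, Benjamini-Hochberg over all genes, threshold 0.05). This procedure was tested on simulated data, in which the planted changes were larger than the difference of any member. The number of arrays limits the precision.

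The deviations of same-numbered arrays from their group means correlated at 0.647, 0.589 and 0.271 over all genes, and p45-/- 3 with WT 2 at 0.616. The same-numbered values all exceed 0.1, so replicate numbers were treated as pairs on this check alone, since the labels state no pairing, and the block is given where it bears on a call. The check does not single out WT 3 as the partner of p45-/- 3, which was nearer to WT 2. Alternatives tried were a block for replicate or for slide, single-slide values, other background correction, scaling, filters and probe rules, the value table, array weights and leaving out arrays. The members, lists and alternatives were chosen with earlier results of these data known. Named were all members, Nfe2, the 3 genes most like each class in pattern, called genes of each pathway list or, with none called, the 3 with the smallest unadjusted p, and genes said to be outside this rule. Some genes that this rule names are not reported here.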

Additional observations from a re-analysis of the deposited data

How the results depend on the processing

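Over the alternatives, 182 of the 190 member differences with a test kept their direction and their side of the threshold. With the replicate block 5 genes were called in all, and 0 members, with member adjusted p of 0.0787 to 0.997, so the block changed no member's call. The number of genes called was 10 with median scaling, 18 for both groups without replicate 1, 1 with no scaling between arrays and 1171 with array weights, and 0 to 1 leaving out 1 array, the 1 without WT replicate 1. With array weights 2 members were called, Ctsg and Mmp8. The members without overlap, 5 of 10, numbered 9 within slide 2 (18.6% of all genes), 10 within slide 1 (1 array per group, 42.8%), 2 with quantile normalization, 8 with median scaling, 9 with no scaling and 5 to 9 leaving out 1 array (11% to 17.4%), the 9 without WT replicate 3 (11.6%). S100a9 reversed to 0.039 within slide 2 and 0.032 with array weights, and ranged from -0.32 to 0.27 leaving out 1 array, above 0 when p45-/- 2 (0.037), p45-/- 3 (0.27) or WT 1 (0.27) was left out. Ltf reversed to 0.076 with array weights. The cause was not tested. The spot mean signal is not in the files, so normexp used the spot median. The unscaled setting and the overlap count were added after the values were seen.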

Other observations

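Genes beside the members on the chromosome, the nearest 2 tested protein-coding genes on each side in the order of GRCm38.p6, numbered 32, and 23 of them had a lower mean in p45-/-, the median difference being -0.25 and 1 lower without overlap. Over all genes tested 53.6% had a lower mean, the median was -0.048 and 8.43% were lower without overlap. Next to Ctsg, in a cluster of granzyme and mast cell protease genes, Mcpt8 differed by -1.65 (SE 0.75) and Gzmb, granzyme B, by -2.76 (SE 1.09), with limma adjusted p of 0.704 for each, and Mcpt2 by -0.25. In p45-/-, Gzmb exceeded background clearly on 2 arrays. Beside Mpo, the related peroxidase genes Epx (eosinophil peroxidase) and Lpo (lactoperoxidase) differed by -0.22 and 0.97, and in WT Lpo exceeded background clearly on 2 arrays. Around Prtn3 and Elane, Plppr3 differed by -0.79, Med16 by -0.19 and Ptbp1 by -0.26. None of these genes passed limma's test over all genes.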
